A study of Homo sapiens with 4 samples.

Results

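The oxygen-sensing transcription factors of the HIF family, their regulators and a set of their best known targets were examined in MDA-MB-231 cells. This established line was grown from a human breast cancer of the triple-negative kind. The 10 genes are HIF1A, EPAS1, ARNT, EGLN1, EGLN3, VEGFA, ADM, BNIP3, BNIP3L and ANGPTL4. They were taken by name, as every row of the deposited table that carries one of these symbols, which gave 32 of the 43596 transcripts and 10 of the 15113 genes. The study treated the cells for 24 h with DMSO, the solvent, or with 10 µM KH-3, a small molecule inhibitor of the RNA-binding protein HuR, and sequenced 2 mRNA libraries for each condition. One cell line was used, and the study's methods call the libraries of a condition biological replicates, without saying more. A further group at a lower dose of KH-3, which the methods name, was not analysed here, and whether it enters the values below is not stated.

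The values below are levels in the experiment as a whole and not effects of KH-3. The deposited table has 1 mean normalized read count per transcript, averaged by the authors over libraries that are not named in the table, beside the authors' own comparison of KH-3 with DMSO, which was not used here. The mean carries no value per library, so the spread between replicates, the depth of each library and the level in each condition are unknown. No test was therefore run, and a difference between 2 levels is given as a ratio without an error. Which neighbours in an order of levels differ beyond the replicate error could not be stated.

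HIF is a dimer of an oxygen-regulated alpha subunit, such as HIF-1α or HIF-2α, and the stable partner ARNT. In normal oxygen, prolyl hydroxylases of the EGLN family modify the alpha subunit, the VHL ubiquitin ligase recognises the hydroxylated form, and the protein is degraded. In low oxygen the alpha subunit accumulates and the dimer raises transcription of genes for blood vessel growth, glucose use and mitochondrial turnover. HIF is thus controlled mainly at the protein level, and the mRNA level of an alpha subunit does not measure its activity. HuR, which binds AU- and U-rich sequence of mRNAs, typically in the 3′UTR, is known to bind the HIF1A and VEGFA mRNAs.

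The AU-rich part of the 3′UTRs is shown first, since HuR binds sequence of this kind. The windows of 30 bases that hold the most copies of the pentamer AUUUA are shown for 5 of the genes, read 5′ to 3′ from the GENCODE release 44 transcripts of hg38, with each AUUUA in capitals. These 5 were chosen to set HIF1A and VEGFA, whose mRNAs HuR is known to bind, beside a prolyl hydroxylase, a mitochondrial target gene and a secreted peptide.
HIF1A: ugcaccuuuuuAUUUAUUUAuuuuuggcua
VEGFA: guuaauAUUUAauuucaacuAUUUAugaga
EGLN1: ucaggauggccAUUUAUUUAauauccauuc
BNIP3: agaaaguauuAUUUAAUUUAaauggaugca
ADM: gguaacuaucaauAUUUAaguuuguugcug

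The HIF1A window lies at chr14:61747347-61747376 on the plus strand, and its first base is number 262 of the 3′UTR. Its 2 pentamers overlap by 1 base and sit in a run of U. In VEGFA the window at chr6:43785871-43785900, plus strand, has number 1309 of the 3′UTR as its first base. Its 2 pentamers are set apart. The EGLN1 window, at chr1:231364065-231364094 on the minus strand, holds 2 overlapping pentamers, as does HIF1A. The BNIP3 window is at chr10:131968039-131968068 on the minus strand, with 2 pentamers that abut. In ADM, at chr11:10307081-10307110 on the plus strand, no window of this length had more than 1 pentamer.

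HIF1A and BNIP3 had the highest levels of the 10 genes, and EGLN3 and ADM the lowest, when all listed transcripts were summed. To compare genes of unequal transcript length, each mean was divided by the length of its transcript in kb and summed over the listed transcripts of the gene. On this scale HIF1A stood at 822 per kb, 7.59 times the median of all listed genes, which was 108 per kb. BNIP3, a mitochondrial outer membrane protein that directs mitochondria to autophagy, followed with 716 per kb. Its relative BNIP3L, with a like role in mitophagy, had 355 per kb, EGLN1 had 329 and EPAS1 had 255. The middle of the order held VEGFA with 165, ARNT with 138 and ANGPTL4 with 135 per kb. ADM had 117 per kb and EGLN3 had 91.0. The order depended on the transcripts and lengths used. With the transcript lengths of release 44, BNIP3 with 949 per kb was above HIF1A with 818, and EGLN1 with 488 was above BNIP3L with 368. With coding transcripts only, VEGFA was the lowest and ADM was number 7 of the 10.

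**Figure D1:**
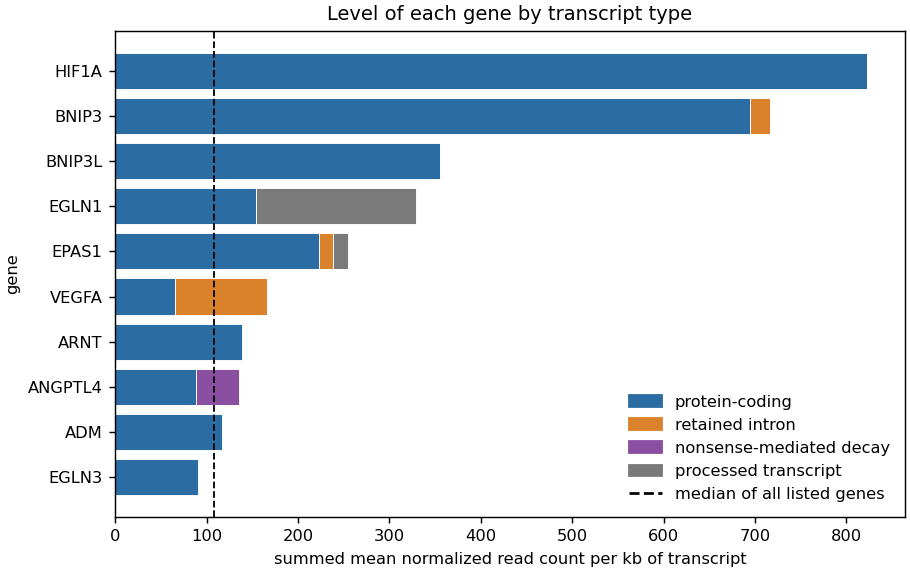
Summed mean normalized read count per kb of transcript for each of the 10 genes, with bars starting at 0 and coloured by the annotated type of the transcripts. The dashed line is the median of all listed genes, at 108 per kb, and EGLN3 alone ends below it, while coding transcripts make up 46.6% of the EGLN1 bar and 39.5% of the VEGFA bar.

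Of the 10 genes, 9 lay above the median of the 15113 listed genes and 4 above the upper quartile of 316 per kb. These 4 were HIF1A, BNIP3, BNIP3L and EGLN1. Of the 15113 genes, 12120 had a listed coding transcript, as did each of the 10. The median, the quartile and the percentiles are thus not those of coding genes alone. HIF1A was at percentile 90.4 of all genes and BNIP3 at 88.7, whereas EGLN3 was at 46.3. The distance from the highest to the lowest, HIF1A over EGLN3, was 9.04-fold. Several neighbours were nearly level, with ARNT 1.02 times ANGPTL4, BNIP3L 1.08 times EGLN1 and HIF1A 1.15 times BNIP3.

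Among the subunits, HIF1A, which encodes the alpha subunit HIF-1α, had 3.23 times the level of EPAS1, which encodes HIF-2α, and 5.94 times that of ARNT, their common partner, all per kb. HIF1A lies on chromosome 14 from 61695513 to 61748259 on the plus strand and had 4 listed transcripts, all protein-coding. Their mean normalized read counts were 2480 for HIF1A-001, 676 for HIF1A-003, 52.9 for HIF1A-002 and 9.45 for HIF1A-201. HIF1A-001 thus held 77.0% of the gene's reads and HIF1A-003 held 21.0%. In release 44 the coding sequence of HIF1A-001 gives 826 amino acids and that of HIF1A-003 gives 827.

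These 2 transcripts can hardly be separated by short reads. Apart from 27 bases at the 5′ end, which release 44 adds to HIF1A-001, they differ by 3 bases that HIF1A-003 takes from an intron of HIF1A-001, so the split of reads between them rests on few fragments. HIF1A-002, in contrast, lacks coding sequence that HIF1A-001 has and gives a protein of 735 amino acids. It held 1.64% of the gene's reads. HIF1A-201 starts in a different first exon, gives 850 amino acids and was close to the lowest mean listed in the table, 7.34.

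EPAS1, on chromosome 2, was carried almost wholly by EPAS1-001, with a mean normalized read count of 1149 and 98.6% of the gene's reads. A retained-intron transcript and a processed transcript were listed at 8.83 and 7.53. These are short pieces of 559 and 452 bases. They held 1.40% of the reads of EPAS1. After division by length their share was larger, and that of EPAS1-001 was 87.3%.

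ARNT, on chromosome 1, had 3 listed transcripts, all protein-coding. The mean normalized read count was 463 for ARNT-001, 141 for ARNT-010 and 10.6 for ARNT-006. ARNT-001 and ARNT-010 encode proteins of 789 and 787 amino acids and differ mainly in the 3′UTR, which is 2308 bases in the first and 1162 in the second. ARNT-001, with the longer 3′UTR, held 75.3% of the reads of ARNT, and 68.5% after division by length. Every base of ARNT-010 is exonic in ARNT-001, so most reads of ARNT-010 fit both.

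The prolyl hydroxylases differed in level. EGLN1, which encodes PHD2, the main oxygen sensor in most cells, was 3.62 times EGLN3, which encodes PHD3 and is itself a HIF target in many cell types. EGLN1 had a mean normalized read count of 1089 for the protein-coding EGLN1-001 and 146 for the processed transcript EGLN1-002. EGLN1-001 is 7097 bases long in the deposited table and 4335 in release 44, and EGLN1-002 is 829 bases in the deposited table. Division by these lengths placed EGLN1-002 at 176 per kb and EGLN1-001 at 153, so the order of the 2 transcripts turned with the scale. The coding transcript alone, at 153 per kb, was still above the 91.0 of EGLN3.

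EGLN3, on chromosome 14, had 3 listed transcripts, all protein-coding. The mean normalized read count was 158 for EGLN3-001, 28.9 for EGLN3-004 and 10.8 for EGLN3-005. EGLN3-001 encodes 239 amino acids, EGLN3-004 encodes 145 and EGLN3-005 encodes 148. The full-length coding transcript thus held 80.0% of the reads of EGLN3. With division by length it held 64.2% and EGLN3-004 held 31.6%. Every base of EGLN3-004 is exonic in EGLN3-001, so most reads of EGLN3-004 fit both. EGLN3-005 has 1 exon, and 75.9% of its bases lie in an intron of EGLN3-001.

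VEGFA, the main growth factor for blood vessels, was by read counts the only one of the 10 genes led by a non-coding transcript. Once divided by length, EGLN1 was led by one as well, with 53.4% on EGLN1-002, against 54.1% on VEGFA-008 in VEGFA. VEGFA lies on chromosome 6 from 43770184 to 43786487 on the plus strand. Of its transcripts, 3 were listed, against 26 annotated in release 44. The mean normalized read count was 246 for the retained-intron transcript VEGFA-008, 231 for the protein-coding VEGFA-001 and 130 for the retained-intron transcript VEGFA-007. The coding transcript therefore held 38% of the reads of VEGFA, and the retained-intron transcripts held 62.0%. Among the 12120 genes with a listed coding transcript, 6.05% had a lower coding share, and the median share was 98.8%. A retained-intron share of at least this size occurred in 283 of these genes, or 2.33%.

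The 3 VEGFA transcripts share nearly the whole 3′UTR, the AU-rich window included. Of the 1925 bases of the VEGFA-001 3′UTR, 97.5% are also exonic in VEGFA-008 and 99.8% in VEGFA-007, so most reads from the 3′UTR fit all of them. VEGFA-008 has 740 bases in introns of VEGFA-001, which is 26.9% of its length. VEGFA-007 is 12167 bases long, with 80.0% of it in introns, and after division by length it fell from 21.5% to 6.48% of the gene. The part of shared reads in the coding share of VEGFA was not tested. VEGFA-001 has a coding sequence of 371 amino acids in release 44. No other coding transcript of VEGFA was listed.

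**Figure D2:**
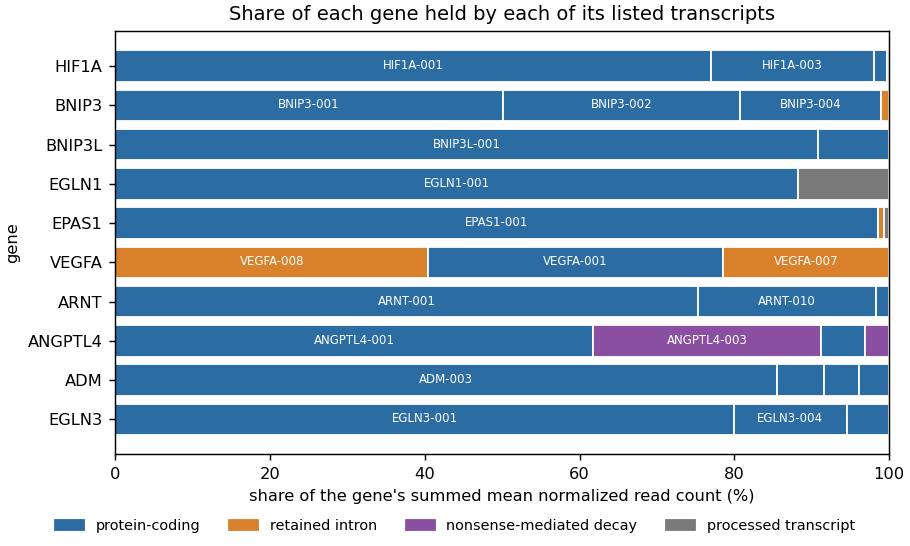
Share of each gene's summed mean normalized read count held by each of its listed transcripts, as stacked bars from 0 to 100%, coloured by transcript type and labelled where the share is large. VEGFA is led by a retained-intron transcript with 40.5%, while the other 9 genes are led by a coding transcript with 50.1% to 98.6%.

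ANGPTL4, a secreted inhibitor of lipoprotein lipase, also had a large part outside the coding transcripts. The mean normalized read count was 151 for the coding ANGPTL4-001 and 13.9 for the coding ANGPTL4-002. The transcripts annotated as targets of nonsense-mediated decay, the pathway that removes mRNAs with a misplaced stop codon, had 72.6 for ANGPTL4-003 and 7.55 for ANGPTL4-009. The coding sequence of ANGPTL4-003 is cut to 128 amino acids, whereas ANGPTL4-009 has the 406 of ANGPTL4-001. Together these last held 32.6% of the reads of ANGPTL4, a share that 4.34% of genes with a coding transcript reached. Every base of ANGPTL4-003 is exonic in ANGPTL4-001, which has 153 bases that ANGPTL4-003 lacks, so most of their reads cannot be told apart.

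ADM encodes adrenomedullin, a secreted peptide that widens blood vessels. It had 4 listed transcripts, all protein-coding, and ADM-003 held 85.6% of its reads with a mean normalized read count of 167. The other transcripts, ADM-002, ADM-001 and ADM-004, lay between 7.59 and 11.6, near the lowest mean listed. ADM-003 gives 138 amino acids in release 44, whereas ADM-001 and ADM-002 give 185. By this division of reads, the transcript with most reads was not one of the full coding length. ADM-003 has 1640 exonic bases in release 44, and 0 of them are its own among the listed transcripts. Whether its reads come from a transcript of the full coding length was not tested. ADM-001 shares 1490 of its 1492 bases in release 44 with ADM-003, and its length in the deposited table was 1885 bases, so this transcript was redefined between releases.

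BNIP3 was the most evenly spread of the 9 genes led by a coding transcript. BNIP3-001 had a mean normalized read count of 779, BNIP3-002 of 475 and BNIP3-004 of 284. These are protein-coding, with 194, 180 and 189 amino acids in release 44, and the retained-intron transcript BNIP3-003 had 16.3. The leading transcript held 50.1% of the reads of BNIP3, below the median of 65.3% over the 10289 genes with more than 1 listed transcript. After division by length, BNIP3-001 with 272 per kb and BNIP3-004 with 267 were nearly level. BNIP3L had a mean normalized read count of 1010 for BNIP3L-001 and 102 for BNIP3L-004, so 90.8% of its reads lay on the first. The share of BNIP3L-001 was 78.7% after division by length.

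By type, 24 of the 32 transcripts were protein-coding, which is 75% against 60.4% of all listed transcripts. The 60.4% also counts transcripts of genes without a listed coding transcript, whereas every gene examined here had a listed coding transcript. The shares are thus not like for like, and the share among transcripts of coding genes alone was not tested. Retained-intron transcripts numbered 4, with nonsense-mediated-decay and processed transcripts at 2 each. In 5 of the genes, HIF1A, ARNT, EGLN3, ADM and BNIP3L, only coding transcripts were listed. A mean normalized read count under 20 was found for 11 of the 32 transcripts, and these hold values that few reads support.

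Of the 10 genes, HIF1A alone shared exonic bases with an overlapping listed gene. On the gene spans of release 44, 4 other listed genes overlapped, and they were named after their values were seen. RP11-618G20.1, on the same strand as HIF1A, had a summed mean normalized read count of 147 and shared 148 exonic bases with the listed HIF1A transcripts. HIF1A-AS2, on the opposite strand, had 17.0 and shared 0 exonic bases with them. SPTSSA on the gene span of EGLN3 and PNMA2 on that of BNIP3L lay outside the listed transcripts of these genes.

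The remaining genes of the pathway were read from lists. Of 45 genes in 6 lists, the 6 of the 10 genes that fall in them included, 40 had a transcript in the table, and 27 lay above the median of all genes. Their median was 208 per kb, and that of the 10 genes was 210. HIF3A, FLT1, RAMP2, RAMP3 and CA9 had no row, so they were not analysed here.

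In the list of HIF subunits the order was led by HIF1A at 822 per kb and ended with ARNT2, a relative of ARNT, at 73.6. All 9 genes of oxygen sensing and HIF degradation were listed. Their median of 329 per kb was that of EGLN1 itself. ELOB, the elongin B subunit of the VHL ubiquitin ligase, was the highest with 3334 per kb. CUL2, the cullin scaffold of the same ligase, was the lowest with 3.64 per kb from 1 transcript. The mean normalized read count of that transcript was 15.0, under 20, so few reads support the CUL2 value. The list of coactivators ran from CREBBP at 219 per kb to CITED2 at 1258, with a median of 241. CITED2 was counted in this list but competes with HIF for the coactivators, so its level is not that of a HIF coactivator.

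The VEGF ligands and receptors had a median of 198 per kb over 7 listed genes. PGF, placental growth factor, was the highest of its list with 468 per kb, against 165 for VEGFA. The lowest was KDR, the main VEGFA receptor of endothelial cells, with 7.78 per kb from 1 transcript, and FLT1 had no row. In the adrenomedullin receptor list, CALCRL, the receptor subunit, was near the bottom of the table with 2.49 per kb. Its mean normalized read count was 13.0, a value that few reads support. RAMP1 of the same list had 266 per kb, whereas RAMP2 and RAMP3 had no row. A role of RAMP1 for adrenomedullin was not tested. The list of other hypoxia response genes had 15 of 16 genes listed, from NDRG1, a stress-response gene, at 29.5 per kb to PGK1, a glycolytic enzyme, at 13385. Coding transcripts held 36.8% of the reads of PGK1, and NDRG1 had none listed. Their median was 126 per kb.

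**Figure D3:**
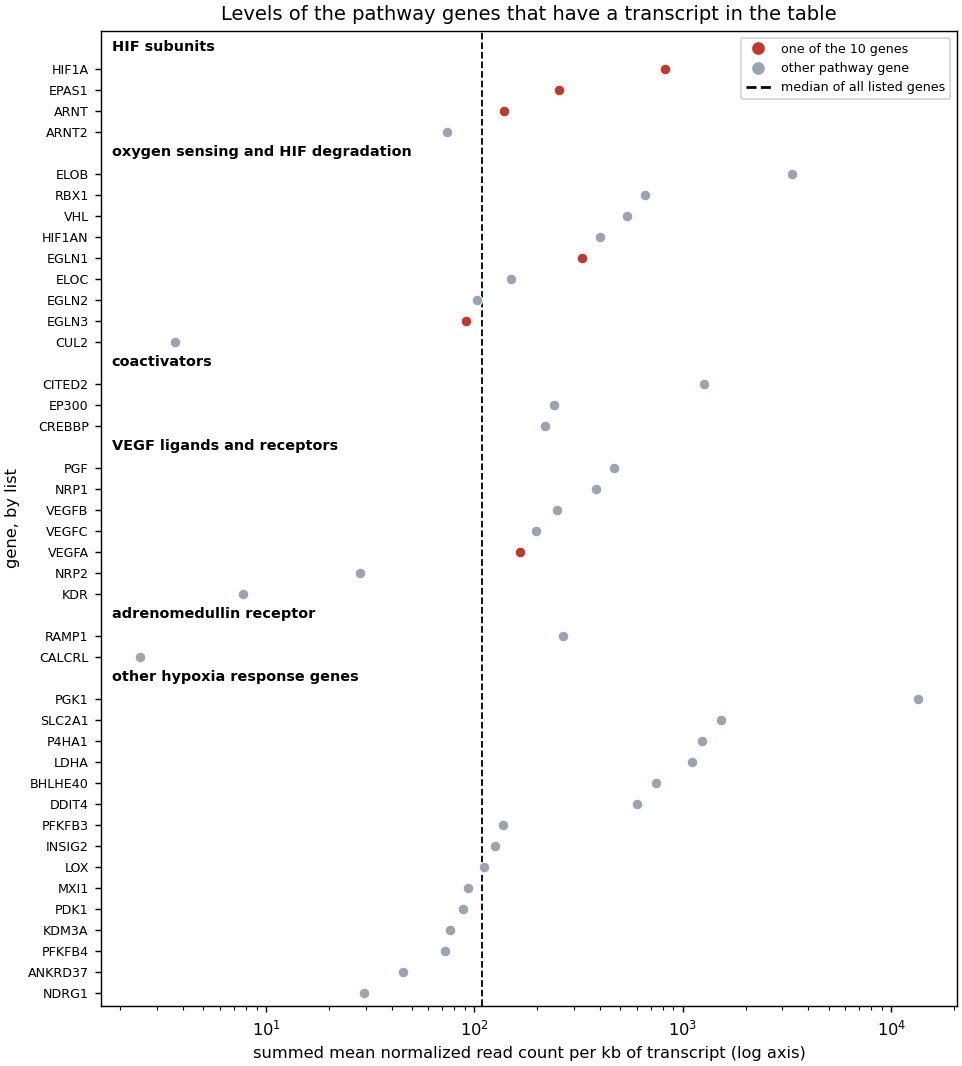
Summed mean normalized read count per kb, on a log axis, for the 40 pathway genes with a transcript in the table. They are grouped by list and ordered within it, with the median of all listed genes as a dashed line. Genes of this report that fall in a list are red, and ADM, BNIP3, BNIP3L and ANGPTL4 are in none. The red points run from 91.0 to 822 per kb, inside the range of the pathway genes from 2.49 to 13385.

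As a check of the cell line, genes of the mesenchymal triple-negative profile were read in the same way. VIM, CD44, MSN and EGFR were all listed, between 427 and 10135 per kb. The receptor genes ESR1 and PGR and the epithelial gene CDH1 had no row. ERBB2 had 44.3 per kb and EPCAM 43.3, both below the median gene. The listed markers were thus high or low as the named line calls for, and the 3 without a row were not analysed here.

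The 3′UTRs of 9 of the 10 genes were denser in AUUUA than the median gene, ANGPTL4 being the exception. The pentamer was counted, overlaps included, in the 3′UTR of the coding transcript with most reads of each gene, from release 44. At least 1 copy was present in 9 of the 10 genes, against 72.8% of the 11600 genes with such a 3′UTR. The median was 5.5 copies over the 10 genes and 2 over all genes. Part of this goes with length, since the median 3′UTR was 1795 bases in the 10 genes and 1260 in all. Per kb of 3′UTR the medians were 2.62 and 1.73.

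VEGFA had the most copies, 10 in 1925 bases. HIF1A was the densest, with 8 copies in 1173 bases, or 6.82 per kb, and 96.1% of genes had a lower density. In VEGFA the density was 5.19 per kb, above 91.3% of genes, and in BNIP3 it was 4.76, above 89.1%. The BNIP3 value is that of BNIP3-001 and did not hold for BNIP3-002, which held 30.6% of the reads. The longer 3′UTR of BNIP3-002 had 2 copies in 2406 bases, or 0.831 per kb, below the median gene. Copies in the 3′UTR of BNIP3-004, of 331 bases and with 18.2% of the reads, were not counted. ADM had 3 copies at 3.98 per kb. EGLN1, ARNT, EPAS1, EGLN3 and BNIP3L lay between 2.21 and 2.64 per kb. ANGPTL4 had none in 484 bases, and with 39.0% A and U its 3′UTR was the poorest of the 10, where that of HIF1A had 70.7%. The longer form UAUUUAU was present in HIF1A and VEGFA with 3 copies each, in BNIP3L with 2 and in ARNT with 1, against at least 1 copy in 35.1% of all genes.

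These counts follow release 44, and 2 of the 10 transcripts have the same length there as in the deposited table. EGLN1-001 has 4335 bases in release 44 and 7097 in the deposited table, and BNIP3-001 has 1542 and 2861. The counts of these genes need not cover all the sequence to which the reads were assigned. A match of 5 letters is a description of the sequence and not a measured HuR site.

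**Figure D4:**
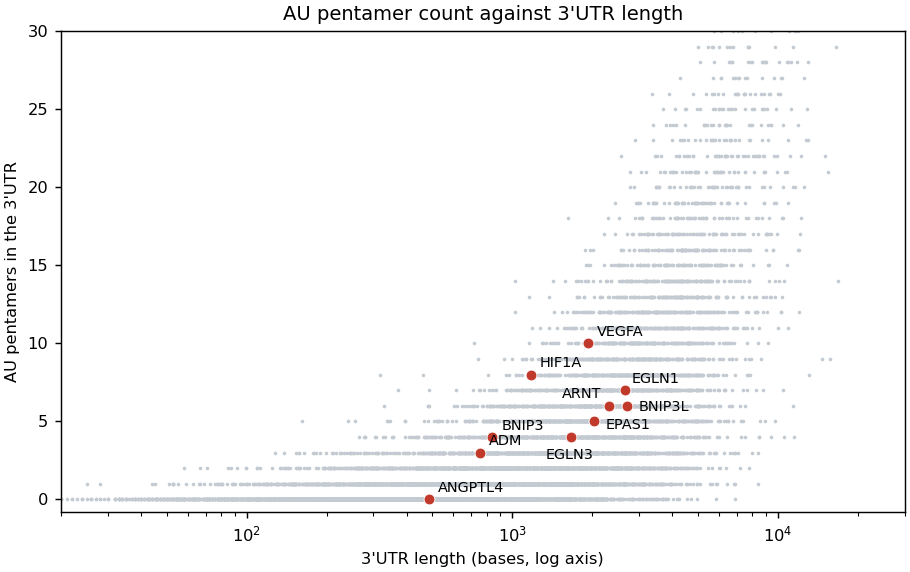
Number of AUUUA pentamers in the 3′UTR against the length of the 3′UTR on a log axis, with 1 grey point for each of the 11600 genes, 121 of which lie outside the plotted range, and the 10 genes in red. HIF1A with 8 and VEGFA with 10 copies stand in the upper part of the points of like length, and ANGPTL4 lies at 0.

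The promoters were searched for the core that HIF dimers bind, ACGTG or GCGTG, on both strands. The window was 300 bases, 250 before the start of the gene and 50 from it, from RefSeq on GRCh38.p14. There were 9 windows for 8 of the 10 genes, since HIF1A has a second one. VEGFA and BNIP3L have none in the table used. The core was found in 6 of the 8 genes, namely HIF1A, EPAS1, EGLN1, ADM, BNIP3 and ANGPTL4, and in 48.4% of all 35116 promoters. The first count is of genes and the second of windows, and the second HIF1A window had 0 matches. BNIP3 differed in number, with 6 matches where each of the other 5 genes had 1. At least 5 matches were present in 1.98% of all promoters. The BNIP3 window is 80.7% G and C against a median of 58.7%, and the core holds the pair CG. The other windows had 65.0% to 80.0% G and C, apart from the second HIF1A window with 31.7%. How often the core occurs in promoters of like G and C content was not tested.

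The BNIP3 matches fall between positions -143 and -104, where position 0 is the start of the gene and the first base of each match is counted. Of these, 2 are the same site read on both strands, since CACGTG is its own reverse complement. The stretch around it is shown for BNIP3, with the windows of EGLN1 and ADM for comparison. Capitals mark 1 core in each, and the BNIP3 stretch also holds the matches at -143 and -125, left in lower case.
BNIP3: cgcacgcgccgcACGTGccacacgcacccc
EGLN1: gggccgtggtgtACGTGcagagcgcgcaga
ADM: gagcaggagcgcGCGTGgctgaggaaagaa

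The BNIP3 stretch is chr10:131982039-131982068 on the minus strand, with the core at position -133. That of EGLN1 is chr1:231422283-231422312 on the minus strand, with the core at position -13. That of ADM is chr11:10304960-10304989 on the plus strand, with the core at position -101. ARNT and EGLN3 had no match in these windows, which says nothing of sites elsewhere in these genes. Binding of HIF was not measured in this study.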

How the data were processed

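Analysed here were 4 mRNA libraries of MDA-MB-231 cells, 2 after DMSO and 2 after 10 µM KH-3, grouped by the treatment label. The authors mapped the reads with STAR to GENCODE release 24 transcripts (hg38), estimated transcript reads by eXpress, and used DESeq2 for the group comparison, with versions not given in the sources used here. The deposited mean normalized read count is a signal pooled by the authors over libraries and not divided by length. The columns with the authors' log2 fold change, p-value and q-value of KH-3 over DMSO were not used. Depth per sample is unknown, and transcripts with a mean under 7.34 are not listed.

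Means were divided by the deposited transcript length and summed per gene symbol. Exons, coding sequences and 3′UTRs came from GENCODE release 44 by transcript ID without version, which found 32 of the 32 transcripts, 22 of them at the same length. Alternatives changed the transcripts counted, the lengths, the minimum mean (20) and the motifs. The genes and lists were chosen with earlier results of these data known. Named genes were the 10, and from the lists the highest, the lowest and those without a row, with the overlapping genes named after their values were seen. The functions were tested on simulated data with known answers. Python 3.11.15, numpy 2.4.6, pandas 2.3.3 and matplotlib 3.10.9 were used.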

Additional observations from a re-analysis of the deposited data

How the results depend on the processing

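No paired analysis was possible because the deposited mean is pooled over libraries, and for the same reason no replicate could be left out. A value was taken as unmoved when it stayed within 1.5 times its reported size. This held for 80 of the 98 values recomputed under the alternatives. Some of the 80 could not have moved. HIF1A, ARNT, EGLN3, ADM and BNIP3L had only coding transcripts listed, so the coding-only setting left their levels and leading shares unchanged. Their protein-coding shares were fixed under every alternative. A share near its upper limit also cannot rise by 1.5 times. The count of 80 therefore includes values that say nothing on the processing. The median level of the 10 genes, 210 per kb, became 128 with the leading transcript alone. The order of the 10 genes moved as well. With a minimum mean of 20, all 10 genes kept their place, but 3 kept it with coding transcripts only, 3 with the leading transcript only and 3 without division by length. With the lengths of release 44, an alternative chosen after seeing the data, 6 kept it, and BNIP3 took the first place from HIF1A, which was first under the other 4. ADM went from 9 to 7 with coding transcripts only and to 6 with the leading transcript only. VEGFA went from 6 to 10 with coding transcripts only, at 65.3 per kb. At least 1 copy of UAUUUAU was present in 4 genes, against 9 with AUUUA. The core ACGTG alone was found in 3 of the 8 genes with a promoter window, against 6 with either core. Among all promoters its share was 21.4%, against 48.4% with either core, and these shares are of windows and not of genes. The level of EGLN1 was 153 per kb from its coding transcript and 488 with the lengths of release 44.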
